A study of Fukomys damarensis with 16 samples.

Results

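The kidneys of breeding Damaraland mole-rats were compared with those of non-breeding colony members. The Damaraland mole-rat, Fukomys damarensis, is a burrowing African rodent that lives in colonies in which reproduction is largely left to a breeding pair while the other adults help. The kidney filters blood, recovers water, salts and nutrients along its tubules, and is a target of steroid and peptide hormones, so it is one of the non-reproductive organs in which breeding status can be examined. The comparison used 4 of the 16 poly(A)+ RNA libraries of the series: a breeding female kidney, a breeding male kidney, a kidney of a non-breeding female labelled as 3 years old and a kidney of a non-breeding male labelled as 5 years old. No age is labelled for either breeder, which means that status and age cannot be told apart here, nor age and sex within the non-breeders. Each combination of status and sex is 1 library, and the labels do not say whether a library holds 1 animal or several, or which libraries share an animal. The other 12 libraries are of liver (4), brain (4), ovary (2) and testis (2) from breeding and non-breeding animals, and were used to see where the kidney genes are expressed elsewhere. Their non-breeding females are also labelled as 3 years old and their non-breeding males as 5 years old, with no age for breeders. Status and age cannot be told apart in those tissues either. The non-breeding male brain is labelled as brain and the other 3 brain libraries as frontal brain, so region and breeding status cannot be told apart in the male brain pair.

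Libraries were paired by sex, breeding over non-breeding: a female pair and a male pair. Levels are RPKM (reads per kilobase of gene model, over a scaling value for each library) as deposited. Reads on genes were 1.55 to 1.97 times this scaling value in livers and 0.665 to 0.945 times in the other libraries. Levels in liver may thus not be on the scale of the other tissues. Ratios are log2 ratios of RPKM + 1, a scale that understates the change of low genes. Of the 21082 gene identifiers in the table, 13618 reached 1 RPKM in at least 2 of the 4 kidney libraries and were compared. The genes of interest are those with a log2 ratio of 1 or more (2-fold) in the same direction in both pairs: 74 genes were higher and 32 lower in both breeding kidneys, 106 in all. They were chosen by these values, so their kidney ratios are a description and not a test. A RefSeq table of 33132 genes of the species matched 0 of the 21082 identifiers. No identifier could thus be paired with a gene name or function, kidney markers could not be read by name, and identifiers are given for 12 genes only, at most 2 in each direction of a comparison. The rest are described by their levels, their coding length and their tissues.

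The kidney libraries held 15634095 to 19534775 reads on genes. Across the genes compared, the log2 levels of any 2 kidney libraries correlated at 0.930 to 0.973, against 0.661 to 0.732 with liver libraries, 0.630 to 0.674 with ovary, 0.487 to 0.541 with brain and 0.485 to 0.531 with testis. These correlations are across genes, which are not independent replicates, and they set the 4 libraries apart as 1 tissue. The breeding female kidney stood furthest from the rest. It differed 2-fold or more from the non-breeding male kidney in 1615 genes, from the non-breeding female kidney in 1221 and from the breeding male kidney in 1149. Pairs without it differed in 445 genes (breeding male against non-breeding male) to 765 (non-breeding female against non-breeding male). Bulk RNA cannot tell fewer cells of a type from less RNA per cell, and this holds for every level below.

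The female pair held more differences than the male pair, and a minority were shared. In the female pair the breeding kidney was at least 2-fold above its partner in 673 genes (4.94%) and below it in 548 (4.02%). The male pair had 265 higher (1.95%) and 180 lower (1.32%). The 74 genes higher in both pairs were 11% of those higher in the female pair and 27.9% of those higher in the male pair, or 0.543% of all genes compared. The 32 genes lower in both were 5.84% of those lower in the female and 17.8% of those lower in the male pair, or 0.235% of all. A further 50 genes (0.367%) moved 2-fold or more in opposite directions in the 2 pairs. The pairs share no library, and across the 13618 genes their ratios correlated at 0.190, a description with no test. At any size of change, 4492 genes (33.0%) were higher in both breeding kidneys, 3507 (25.8%) were lower in both and 5608 (41.2%) moved opposite ways. The median log2 ratio of all genes was 0.07 in the female and 0.01 in the male pair.

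**Figure D1:**
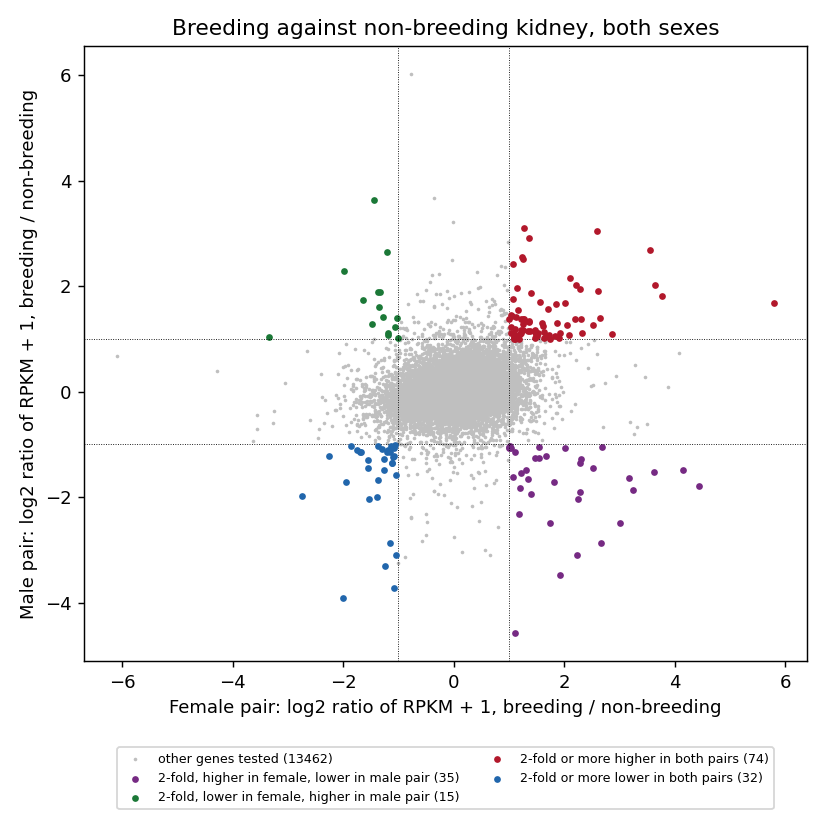
Log2 ratio of RPKM + 1, breeding over non-breeding, in the female pair (x axis) and the male pair (y axis) of kidney libraries, 1 point per gene for the 13618 genes compared, with dotted lines at 2-fold. The 74 genes higher in both pairs fill the upper right corner and the 32 lower in both the lower left, while 35 and 15 genes lie in the corners of opposite change, and the cloud is wider along the female axis.

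An abundant kidney transcript was many times higher in both breeding kidneys. DMR_11412, with a coding length of 840 bases, stood at 920.9 RPKM in the breeding female and 681.2 in the breeding male kidney, against 77.5 in the non-breeding female and 104.7 in the non-breeding male kidney. Both breeding kidneys were far above both non-breeding ones. The means were 801 ± 169 RPKM in breeding and 91.1 ± 19.2 in non-breeding kidneys (SD, n = 2 each). By reads the female ratio was 11.9-fold (95% exact interval 11.2 to 12.6) and the male ratio 6.51-fold (6.19 to 6.85), intervals that cover counting error only. In a limma fit of the 12 kidney, liver and brain libraries, in which status and sex had their own effect in each tissue, the gene rose 3.12 log2 units with breeding (SE 0.259), at a limma adjusted p of 0.0186.

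DMR_11412 was the single gene of 13618 to pass the threshold of adjusted p 0.05 in that fit (0.00734%), and 1124 genes (8.25%) had an unadjusted p under 0.05. Outside the kidney its level was low and steady, at 7.28 to 9.15 RPKM in the 4 livers, 6.57 to 9.87 in the 4 brains, 6.44 against 8.36 in the ovaries of the breeder and the non-breeder, and 7.81 against 8.50 in the testes of the breeder and the non-breeder. These ranges held breeding and non-breeding libraries alike. The status effect in kidney exceeded that in liver by 2.94 (SE 0.367, limma adjusted p = 0.219) and that in brain by 2.76 (SE 0.367, limma adjusted p = 0.569), differences that missed the threshold over all genes. The fit takes its spread from how far the female and male pairs disagree in each of the 3 tissues, and liver and brain are steady for this gene. The call was lost without any 1 of the 4 brain libraries (limma adjusted p 0.178 to 0.179), without the breeding female kidney (0.233), the non-breeding female kidney (0.236), the breeding male kidney (0.0541) or the non-breeding male kidney (0.0505), and with the kidney libraries alone (0.124). Without 1 kidney library the effect rests on the pair of the other sex. The number of genes called was 10 without the breeding male kidney, 6 without the non-breeding male kidney, 2 without any 1 liver and 0 without any 1 brain library. An exact permutation of 2 against 2 libraries cannot give a two-sided p below 0.333.

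DMR_01650 was a testis transcript that was read in the breeding kidneys and almost absent from the others. It stood at 6.62 RPKM (360 reads) in the breeding female and 9.64 RPKM (552 reads) in the breeding male kidney, against 0.266 RPKM (12 reads) in the non-breeding female and 0.287 RPKM (15 reads) in the non-breeding male kidney. The groups did not overlap. Its log2 difference of 2.82 (SE 0.320) missed the threshold, with a limma adjusted p of 0.0742. The gene was highest in testis, at 84.3 RPKM in the breeding male and 70.6 in the non-breeding male. It stood at 5.77 RPKM in the ovary of the breeder and 5.49 in that of the non-breeder, and between 1.41 and 2.53 in brain. In liver it stood at 1.41 RPKM in the breeding female against 0.103 in the non-breeding female, and at 0.408 in the breeding male against 0.229 in the non-breeding male. The female liver pair thus went the way of the kidney at low levels. Both male livers were under 1 RPKM, so no direction is read there. The testis values were close to each other.

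Among the lower genes, DMR_10289 and DMR_17479 led when genes were ordered by the smaller of their log2 ratios in the 2 pairs. DMR_10289 stood at 18.4 RPKM in the breeding female and 27.4 in the breeding male kidney, against 77.1 in the non-breeding female and 425.6 in the non-breeding male kidney. The groups did not overlap, but the male non-breeding kidney was far above the female one. Its log2 difference of -2.96 (SE 0.575) missed the threshold (limma adjusted p = 0.332). In liver the gene stood at 100200 to 193000 RPKM, far above any kidney. DMR_17479 stood at 0.688 RPKM (11 reads) in the breeding female and 15.1 RPKM (254 reads) in the breeding male kidney, against 10.2 RPKM (136 reads) in the non-breeding female and 62.7 RPKM (966 reads) in the non-breeding male kidney. Its groups overlapped, since the breeding male was above the non-breeding female, and the difference was seen within each sex. The log2 difference was -2.36 (SE 0.277, limma adjusted p = 0.0742). This gene was listed at 0 in all livers and ovaries and reached at most 2.09 RPKM outside the kidney, in the non-breeding testis.

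**Figure D2:**
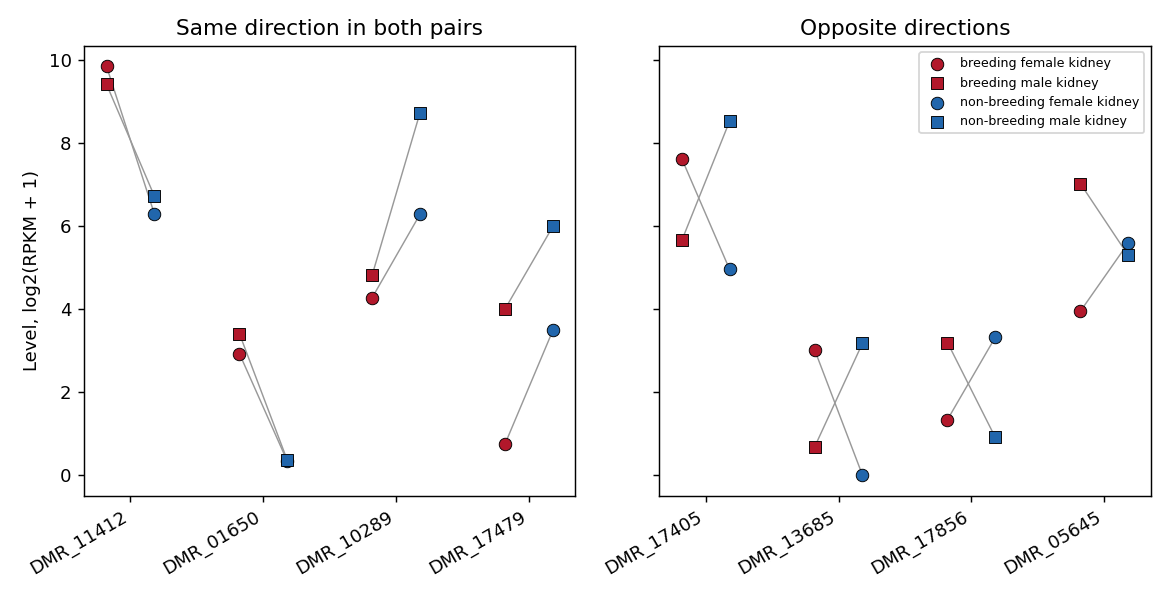
Level of 8 genes as log2(RPKM + 1) in each kidney library, breeding in red left of non-breeding in blue, circles for females and squares for males, with lines joining the libraries of a pair. In the left panel both lines of a gene slope the same way, with DMR_11412 and DMR_01650 higher in breeding kidneys and DMR_10289 and DMR_17479 lower, and in the right panel the lines of each gene cross or slope opposite ways.

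The ratios of most other genes of the sets were smaller. Among the 74 higher genes the median log2 ratio was 1.47 in the female and 1.29 in the male pair. The 32 lower genes had medians of -1.26 and -1.29 in these pairs. Both breeding kidneys lay beyond both non-breeding ones in 69 of the 74 higher and 25 of the 32 lower genes. Over all genes compared this held upward for 20.8% and downward for 13.5%, and a 2-fold gap in both pairs favours it by construction. The median higher gene had 12.8 RPKM in the breeding female and 12 in the breeding male kidney, against 3.09 in the non-breeding female and 4.16 in the non-breeding male kidney. For the median lower gene the levels were 2.63 and 6.22 RPKM in the breeding female and male kidney, against 10 and 26.5 in the non-breeding female and male kidney. The higher gene nearest the 2-fold limit had log2 ratios of 1.74 in the female and 1.003 in the male pair, and the nearest gene outside had 1.55 and 0.996. On the lower side the nearest gene inside had -1.05 and -1.02, and the nearest outside -0.998 and -3.26.

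Both sets held some abundant transcripts. Apart from DMR_11412, the higher set held a transcript of 348 bases at 1280 RPKM in the breeding female and 803 in the breeding male kidney, against 275 in the non-breeding female and 197 in the non-breeding male kidney. A kidney-enriched transcript of 285 bases stood at 350 and 294 RPKM in the breeding female and male, against 112 and 134 in the non-breeding female and male kidney, and at a mean of no more than 14.2 RPKM in any other tissue. A transcript of 1035 bases stood at 253 and 214 RPKM in the breeding female and male, against 33.8 and 99.8 in the non-breeding female and male kidney. Its mean of 182 RPKM in ovary was below either breeding kidney. In all 8 of the 74 higher genes and 5 of the 32 lower genes averaged 100 RPKM or more over the 4 kidneys (10.8% and 15.6%, against 8.55% of the genes compared). The most abundant lower transcript, of 351 bases, stood at 399 and 371 RPKM in the breeding female and male, against 980 and 789 in the non-breeding female and male kidney. It averaged at most 13.7 RPKM in another tissue. None of these genes other than DMR_11412 passed the limma threshold.

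The genes of both sets were expressed in fewer tissues than most genes of the kidney. Of the 74 higher genes 34 (45.9%) averaged 1 RPKM or more in all 4 other tissues, and of the 32 lower genes 12 (37.5%), against 80.7% of all genes compared. The higher genes were also less abundant in part, with 35.1% under 5 RPKM in kidney against 22.8% of all. The lower genes were near the share of all, at 25.0%, with a median kidney level of 15.9 RPKM against 14.9. The part of level in the breadth of the sets was not tested. The coding lengths of both sets were short, with a median of 1002 bases for the higher and 504 for the lower genes against 1321 for all. In 4 higher and 2 lower genes every library outside the kidney was under 1 RPKM (5.41% and 6.25%, against 1.08% of all). The largest of these was DMR_22243, which also had the highest ratio of the female pair. It stood at 60.6 RPKM in the breeding female and 84.3 in the breeding male kidney, against 0.105 RPKM (5 reads) in the non-breeding female and 25.7 RPKM in the non-breeding male kidney, and at most 0.0774 RPKM elsewhere. Its near absence was thus a feature of 1 library, the non-breeding female kidney.

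The higher genes were spread over the tissues by where they were highest, and many of the lower genes were highest in liver. The highest mean level was in kidney for 20 of the 74 higher genes (27%, against 16.3% of all genes compared), in brain for 19 (25.7%, against 22.2%), in liver for 16 (21.6%, against 22.7%), in ovary for 13 (17.6%, against 17.0%) and in testis for 6 (8.11%, against 21.8%). Of the 32 lower genes 16 were highest in liver (50%), 9 in kidney (28.1%), 4 in testis (12.5%), 3 in brain (9.38%) and 0 in ovary. The 16 lower genes highest in liver had a median of 653 RPKM there and 18.9 RPKM in kidney. Over all genes compared the median was 13.8 RPKM in liver and 14.9 in kidney. Tissues were ranked by RPKM as deposited, and the part of the unlike scaling of liver in this ranking was not tested. The kidney mean holds the same values that chose the genes, so the kidney shares of the sets are not independent of that choice. The 20 higher genes highest in kidney had a median of 12.6 RPKM there.

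**Figure D3:**
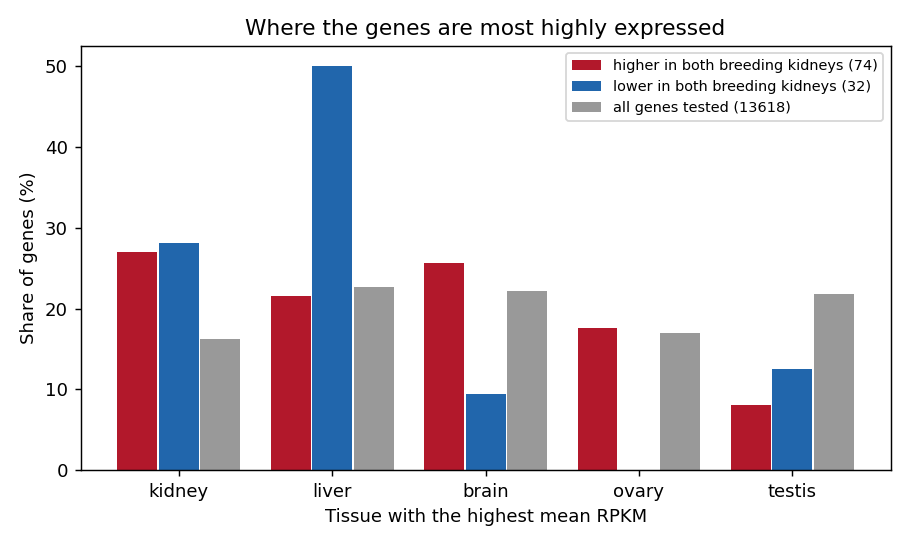
Share of genes (%) whose mean RPKM was highest in each tissue, for the 74 genes higher in both breeding kidneys, the 32 lower in both and all 13618 genes compared. The liver bar of the lower genes reaches 50%, against 22.7% for all genes, and the testis bar of the higher genes is at 8.11%, against 21.8%.

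The kidney libraries differed in their level of a group of abundant liver transcripts that were scarce in kidney, and 5 of these were in the lower set. In all 96 transcripts had 1000 RPKM or more in every liver. They summed to 79930 and 62110 RPKM in the breeding female and male, against 58070 and 65740 in the non-breeding female and male kidney. Of the 94 compared 35 were lower in both breeding kidneys and 16 higher in both, at any size of change. Over all genes compared 25.8% were lower and 33.0% higher in both. In a group chosen after its values were seen, 29 of the 96 had under 1% of every liver's level in each kidney. Their summed level was 173 RPKM in the breeding female and 155 in the breeding male kidney, against 252 in the non-breeding female and 996 in the non-breeding male kidney. The non-breeding male kidney stood apart, at 0.301% of the mean liver sum against 0.0469% to 0.0762% in the others. Of the 27 that were compared 20 (74.1%) were lower in both breeding kidneys at any size of change, against 25.8% of all genes, and 0 were higher in both. Among the 32 lower genes 5 belonged to this group, DMR_10289 with them, and 27 remained without it, 11 of which were highest in liver. None of the 74 higher genes belonged to it. The part of these transcripts in the other lower genes was not tested.

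Groups of genes restricted to 1 of the other tissues were defined without the kidney. The sums of the liver and testis groups overlapped between breeding and non-breeding kidneys, the brain sums were lower and the ovary sums higher in both breeding kidneys. They held genes at 10 RPKM or more in every library of a tissue and under 1 RPKM in every library of the remaining 3. The 103 liver genes summed to 4474 and 4522 RPKM in the breeding female and male, against 4261 and 4730 in the non-breeding female and male kidney. The 154 brain genes summed to 386.6 and 513.2 RPKM in the breeding female and male, against 588.5 and 521.2 in the non-breeding female and male kidney. Gene by gene they did not follow the sums. Of the 33 brain genes compared 13 were higher and 5 lower in both breeding kidneys, at any size of change. Over all genes compared 33.0% were higher and 25.8% lower in both. The median log2 ratios of the brain genes were 0.257 in the female and 0.206 in the male pair, against 0.0656 and 0.0148 for all. For the 303 testis genes the sums were 692.3 and 416.9 RPKM in the breeding female and male, against 522.1 and 449.3 in the non-breeding female and male kidney, and for the 9 ovary genes they were 42.2 and 39.4, against 38.6 and 37.0. The spread between libraries of a status was larger than the gap between statuses in the brain group, and the ovary sums were small. Of the 69 liver genes compared 1 was in the higher and 4 in the lower set. Of the 33 brain genes compared 2 were in the higher set. The higher set held 0.543% and the lower set 0.235% of all genes compared. The part of the groups in the results was not tested.

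**Figure D4:**
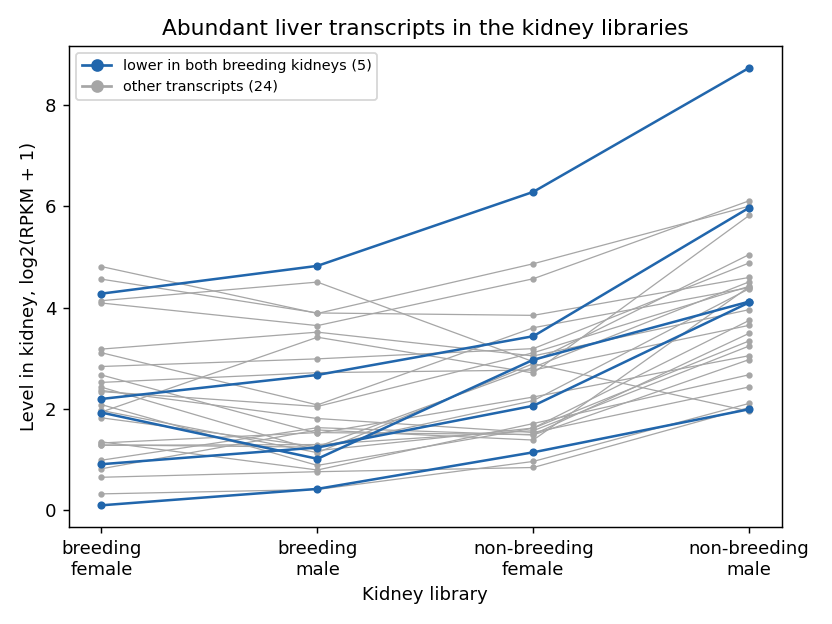
Level in each kidney library, as log2(RPKM + 1), of 29 transcripts at 1000 RPKM or more in every liver and under 1% of that in each kidney, 1 line per transcript, breeding libraries left of non-breeding ones. Most lines are highest in the non-breeding male kidney, and the 5 in blue are the members of the set lower in both breeding kidneys, of which DMR_10289 is the highest in the non-breeding male kidney.

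The libraries of other tissues took no part in choosing the genes and gave their direction there. In liver 38 of 47 measured higher genes (80.9%) were also higher in the breeding female, against 47.9% of all genes compared, and 32 of 44 (72.7%) in the breeding male, against 53.7%. A gene counts as measured in a pair where 1 of its libraries reached 1 RPKM. A 2-fold difference upward was seen in 17 of them (36.2%, against 5.88%) in the female and 11 (25.0%, against 2.30%) in the male livers. Lower genes were also lower in 17 of 26 cases in the female pair (65.4%, against 52.1%) and in 17 of 26 in the male pair (65.4%, against 46.3%). In ovary 46 of 59 higher genes (78.0%) were higher in the breeding female, against 51.1% of all, and 19 of them 2-fold or more (32.2%, against 5.29%). The lower genes showed no such shift there, with 7 of 17 lower (41.2%, against 48.9%).

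In brain the shares by direction varied between the pairs. There 32 of 58 higher genes (55.2%) were higher in the breeding female, against 47.3% of all, and 36 of 58 (62.1%) in the breeding male, against 48.5%. A 2-fold difference upward was seen in 6 of them (10.3%, against 1.08%) in the female and 11 (19.0%, against 2.49%) in the male brains. Of the lower genes 7 of 16 (43.8%, against 52.7%) were lower in the female and 14 of 18 (77.8%, against 51.5%) in the male brains, the pair labelled for unlike regions. A 2-fold difference downward was seen in 0 of them in the female brains (against 0.765%) and in 6 (33.3%, against 1.24%) in the male brains. In testis 20 of 53 higher genes (37.7%) were higher in the breeding male, against 45.8% of all, with a median log2 ratio of -0.11. Large changes went both ways there, as 4 were 2-fold or more higher (7.55%, against 0.546%) and 3 were 2-fold or more lower (against 1.68% of all). Over the 6 pairs of the other tissues together, 277 of 444 measurements (62.4%) went the way they did in kidney. Weighted by the members measured in each pair, the share over all genes compared was 49.5%. Without the male brain pair 227 of 368 (61.7%) did so, against 49.5%. Genes differ in how many pairs they enter and libraries of a status may share an animal, so these shares are descriptions with no test. Limma called 0 of the 13618 genes for a status effect that differed between kidney and liver (701 or 5.15% at an unadjusted p under 0.05, 0 calls with voom) or between kidney and brain (305 or 2.24%, 0 calls with voom). For kidney against liver 74 genes were called without the breeding male or without the non-breeding male liver, 2 without either female liver and 1 without the breeding male kidney. For kidney against brain 1 gene was called without the breeding male kidney.

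**Figure D5:**
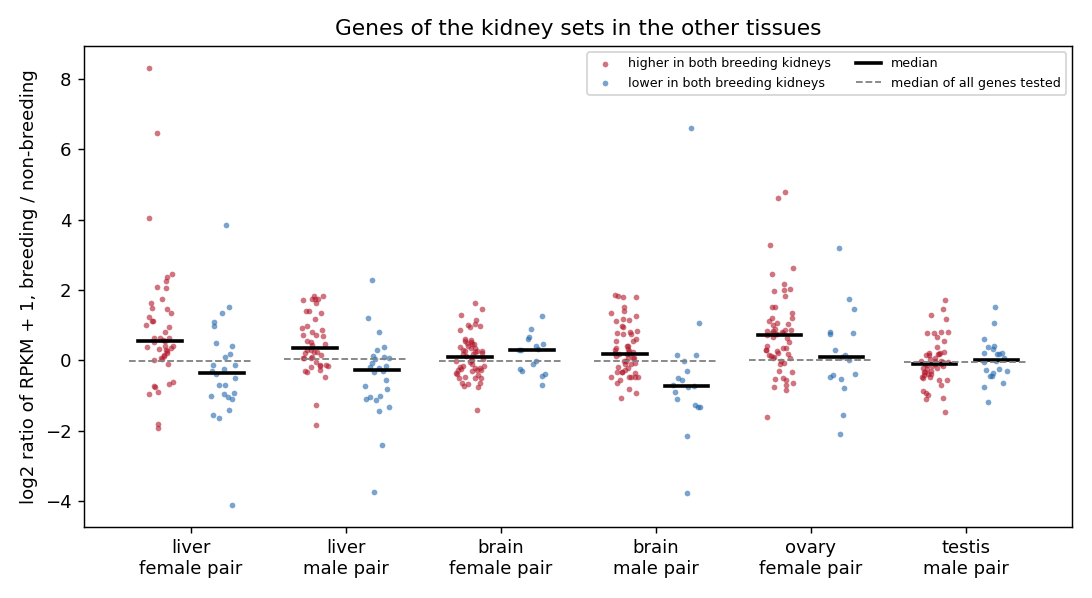
Log2 ratio of RPKM + 1, breeding over non-breeding, in the 6 pairs of the other tissues for genes higher (red) and lower (blue) in both breeding kidneys, 1 point per gene with at least 1 library of the pair at 1 RPKM. Black bars are medians and dashed lines the median of all genes compared. The red medians are 0.54 and 0.37 in the liver pairs and 0.72 in ovary and -0.11 in testis, and the blue median is lowest in the male brain pair at -0.72.

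Some genes kept their direction with 2-fold or more in both kidney and both liver pairs. They were 4 of the 49 higher genes measured in liver (8.16%) and 3 of the 27 lower ones (11.1%). Of all genes compared and measured there, 0.464% were 2-fold higher and 0.28% 2-fold lower in both liver pairs. A transcript of 2043 bases stood at 27 RPKM in the breeding female and 35.4 in the breeding male kidney, against 11.5 and 11.4 in the non-breeding female and male kidney. In liver it stood at 35.3 and 45.5 RPKM in the breeding female and male, against 12.1 in each non-breeding library, and in brain at 43.9 and 40.6 in the breeding, against 13.5 and 16.4 in the non-breeding female and male. It was also higher in the breeding ovary, at 57.6 against 30.4 RPKM, and the breeding testis, at 45.0 against 25.7 RPKM. A transcript of 348 bases from the lower set stood at 51.6 and 42.6 RPKM in the breeding female and male, against 151 and 178 in the non-breeding female and male kidney. It stood at 5.43 and 9.04 RPKM in the breeding female and male livers, against 110 and 133 in the non-breeding ones. A liver transcript of 1479 bases, 1 of the 29 abundant liver transcripts above, stood at 2.81 and 1.02 RPKM in the breeding female and male kidneys, against 6.85 and 16.4 in the non-breeding ones, and at 2210 and 3660 in the breeding, against 5940 and 7400 in the non-breeding female and male livers. In all 8 pairs of the 5 tissues 6 higher genes went up (8.57% of the 70 measured) and 1 lower gene went down (3.33% of 30). The kidney pairs chose these genes. Over the 6 pairs outside the kidney alone, 1.45% of all genes compared and measured there went up throughout and 1.4% went down.

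The genes that kept their direction in all 8 pairs included the transcript of 348 bases of the higher set, at the kidney levels given above. A transcript of 4113 bases, chiefly a liver transcript, stood at 8.82 and 19.0 RPKM in the breeding female and male, against 3.13 and 6.76 in the non-breeding female and male kidney. In ovary it stood at 30.8 RPKM in the breeder and 7.17 in the non-breeder. The lower gene of the group, of 513 bases, stood at 4.71 and 6.72 RPKM in the breeding female and male, against 26.3 and 17.0 in the non-breeding female and male kidney, and at 23.2 and 18.8 in the breeding, against 46.1 and 52.7 in the non-breeding female and male livers.

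The sexes went opposite ways in 50 genes, and these included some of the largest ratios. In 35 of them (0.257% of all genes compared) the breeding female kidney was higher and the breeding male kidney lower than its partner, and in 15 (0.110%) the reverse held. DMR_17405, a kidney transcript at no more than 0.772 RPKM elsewhere, stood at 196.2 RPKM in the breeding female against 30.0 in the non-breeding female kidney, and at 49.3 in the breeding male against 368.5 in the non-breeding male kidney. DMR_13685 stood at 7.11 RPKM (56 reads) in the breeding female and was without reads in the non-breeding female kidney, a ratio of 15.5 when the non-breeding library is set at a floor of 3 reads, with an exact 95% lower limit of 12.2 for the read ratio. In males it stood at 0.603 RPKM (5 reads) in the breeding and 8.04 RPKM (61 reads) in the non-breeding kidney. In the reverse direction DMR_17856 stood at 1.53 RPKM in the breeding female against 9.01 in the non-breeding female kidney, and at 8.16 in the breeding male against 0.876 in the non-breeding male kidney. DMR_05645, a liver transcript at 2537 to 3221 RPKM there, stood at 14.4 RPKM in the breeding female against 47.2 in the non-breeding female kidney, and at 129.3 in the breeding male against 38.3 in the non-breeding male kidney.

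The tissues of these genes differed by direction. Of the 35 genes higher in the female and lower in the male pair, 15 were highest in kidney (42.9%, against 16.3% of all genes compared) and 9 reached a mean of 1 RPKM in no other tissue (25.7%, against 1.55%). Of the 15 of the reverse kind, 9 were highest in liver (60.0%, against 22.7%), 5 in brain and 0 in kidney. Here too the kidney mean holds the values that chose the genes. Whether a status effect differs between the sexes was not tested, since each combination is 1 library.

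Large ratios of a single pair were often not shared. The lowest ratio of the female pair belonged to DMR_17640, at 2.30 RPKM (97 reads) in the breeding female against 223.7 RPKM (7834 reads) in the non-breeding female kidney, while the males had 579.4 RPKM (breeding) and 359.9 RPKM (non-breeding). It was also low in the breeding female liver, at 4.53 RPKM against 51.2 in the non-breeding female liver. The breeding male liver had 200.2 RPKM and the non-breeding male liver 359.6. The highest ratio of the male pair belonged to DMR_05955, at 96.3 RPKM (3207 reads) in the breeding male against 0.493 RPKM (15 reads) in the non-breeding male kidney, and 2.85 RPKM in the breeding against 5.52 in the non-breeding female kidney. It reached at most 0.737 RPKM outside the kidney. The lowest ratio of the male pair belonged to DMR_15906, a brain transcript, at 0.748 RPKM (60 reads) in the breeding male against 40.8 RPKM (2995 reads) in the non-breeding male kidney, and at 5.17 in the breeding against 1.85 in the non-breeding female kidney. Its level in the brains was 34.5 to 49.6 RPKM, so the non-breeding male kidney reached that of brain.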

How the data were processed

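Poly(A)+ RNA of 16 libraries was sequenced from both ends on an Illumina instrument, per the labels' protocols. Strand marking is not mentioned there. The authors deposited RPKM values, in a single table that holds a column for each library. TopHat 1.3.1 is named in the submitters' processing notes. The genome build, annotation and counter were not stated in the sources at hand.

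Whole reads were recovered from the RPKM by finding the divisor (scaling value) of each library and the coding length of each gene. The unit of length, 3 bases, was assumed. Lengths, divisors and the multiples of the scaling value given above rest on it. All values above 0 (100%) were whole reads to within 1e-06 reads or, for large counts, a relative 1e-11. Whether a pair counts as 1 read is unknown, so exact 95% intervals of read ratios (Clopper-Pearson on the split of reads) cover counting error at best.

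Ratios used log2(RPKM + 1) for genes at 1 RPKM or more in at least 2 of the 4 kidney libraries. Status was tested with limma 3.58.1 in R 4.3.3 (trended eBayes, Benjamini-Hochberg over all genes compared) on 12 libraries, with status and sex nested in tissue and 3 residual degrees of freedom. These 3 degrees of freedom are the disagreement, within each tissue, between the status differences of the female and male pairs. P-values measure that disagreement, which cannot be told apart from the unlike ages of the non-breeders. They do not measure the spread between animals or repeat libraries, and libraries may be of shared animals. The recovery and the fit were also run on simulated data, with lengths drawn in units of 3 bases and no difference between the sexes. Such data cannot check the unit of length or the disagreement of the pairs. The genes named are the 2 with the largest smaller-of-both-pairs ratio per direction, 2 per kind of opposite change, and the extreme gene of each pair. The members and lists were chosen with earlier results of these data known. Named marker lists were not used, for lack of gene names. Alternatives covered the pseudocount, filter, scaling, fold limit, model and each library left out.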

Additional observations from a re-analysis of the deposited data

Results flagged for a closer look

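In kidney 50 genes differed 2-fold or more between breeding and non-breeding libraries in opposite directions in the female and the male pair. They are listed because the only pair of a sex moved one way and the only pair of the other sex the opposite way. As every status and sex is represented by 1 library, the difference was not tested. The leading genes were DMR_17405 (log2 ratio 2.67 in the female and -2.88 in the male pair), DMR_13685 (3.02 and -2.50), DMR_17856 (-1.99 and 2.29) and DMR_05645 (-1.64 and 1.73).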

How the results depend on the processing

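The 96 ratios of the 12 named genes under another pseudocount and other scalings kept their sign, and 12 of them moved beyond counting error, 9 with a pseudocount of 0.1 (DMR_01650 4.66 against 3.05 in the male pair, DMR_22243 8.21 against 5.80 in the female pair). The fitted status effects of DMR_11412, DMR_01650, DMR_10289 and DMR_17479 also kept theirs, in all 23 alternatives each. They passed adjusted p 0.05 in 12, 8, 0 and 2 of these, with adjusted p from 0.00104 to 0.236, 0.0236 to 0.325, 0.157 to 0.637 and 0.0454 to 0.654. A fold limit of 1.5 gave 353 higher, 175 lower and 221 opposite genes, a limit of 3 gave 11, 3 and 13, and a pseudocount of 0.1 gave 151, 60 and 103. A filter of 5 RPKM left 31 opposite genes. The limma calls in kidney numbered 0 without a filter, with kidney libraries only and with kidney and liver only, 3 with voom, 5 with 1 sex effect for the 3 tissues, and 6 each with a filter of 5 RPKM and with robust eBayes. With each library left out they ran from 0 (any brain library) to 10 (the breeding male kidney). Calls for kidney against liver numbered 1 with 1 sex effect, and 0 to 74 with a library left out, 74 without the breeding male or the non-breeding male liver. Calls for kidney against brain ran from 0 to 1. The causes were not tested. The alternative without abundant liver transcripts was chosen after seeing the data. Libraries could not be matched by animal, because the labels carry no replicate numbers for this. They were paired by sex only, and sex was a term of the fits. Low genes limit the sets, since 13 of the 74 higher genes were under 1 RPKM in both non-breeding kidneys.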
